A study of Mus musculus with 4 samples.

Results

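Hedgehog signalling was followed here through 8 genes of the deposited count table, Ihh, Ptch1, Smo, Gli1, Gli2, Gli3, Hhip and Sufu. They were picked by name for their place in the pathway, and all 8 were found among 24421 rows. RNA came from the superficial zone of knee articular cartilage, taken from the medial femoral condyle of C57BL/6J mice 8 weeks after surgery. A DMM knee, in which the medial meniscus is destabilised so that osteoarthritis develops, and a sham-operated knee were taken from each of 2 mice, M04 and M05, which gives 2 libraries per group and 4 in all. Wild type is the genotype label of all 4 samples, while the series' design text names M05 a knockout without naming a gene. A difference between the mice is therefore given as one between 2 animals, and animal and any genotype cannot be told apart.

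In cartilage, Indian hedgehog is released by chondrocytes that are about to become hypertrophic. It binds the receptor Ptch1, which otherwise holds the membrane protein Smo silent, and freed Smo lets the Gli transcription factors act, with Sufu restraining them. Gli1, Ptch1 and Hhip are themselves switched on by the pathway and are often read as its gauges, and in the growth plate the signal keeps PTHrP production going, which delays hypertrophy.

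The libraries held 12712425 to 19336628 counts. Transcripts of 16 cartilage markers, such as Col2a1 and Acan, made up 0.66% (sham) and 0.815% (DMM) of all counts in M04, and 0.157% and 0.526% in M05. None of the 16 was at 0, and Cnmd, also on that list, is not among the row names used here. The sham library of M05 stood apart by its low cartilage share, and haemoglobin and neutrophil transcripts were abundant in all 4 libraries. In such bulk tissue, fewer cells of a type and less RNA per cell cannot be told apart. CPM below are read counts scaled to library size, after TMM scaling (a correction for composition), and an interval given for 1 library is the exact 95% Poisson interval, which covers counting error only.

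The 8 genes were present at very unequal levels. On the length-scaled FPKM of the deposited table, Smo was the highest, at 4.46 to 6.27, followed by Sufu at 3.17 to 3.62. Ihh, at 0.703 to 1.52, and Ptch1, at 0.384 to 1.35, overlapped with each other but with neither of the former. Gli2 (0.144 to 0.293), Hhip (0.119 to 0.279) and Gli1 (0.120 to 0.271) overlapped one another, and the lowest was Gli3, at 0.0569 to 0.109. The signal relay was thus measured with 186 to 354 counts per library, but the ligand, the targets and the Gli factors with 7 to 86. Summed over the 8 genes, the level was 45.4 and 53.7 CPM in the sham and DMM library of M04 and 41.2 and 44.9 CPM in those of M05. In M04 the summed cartilage markers stood at 6306 CPM in the sham and 7225 CPM in the DMM library, and in M05 at 1781 and 5493 CPM.

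**Figure D1:**
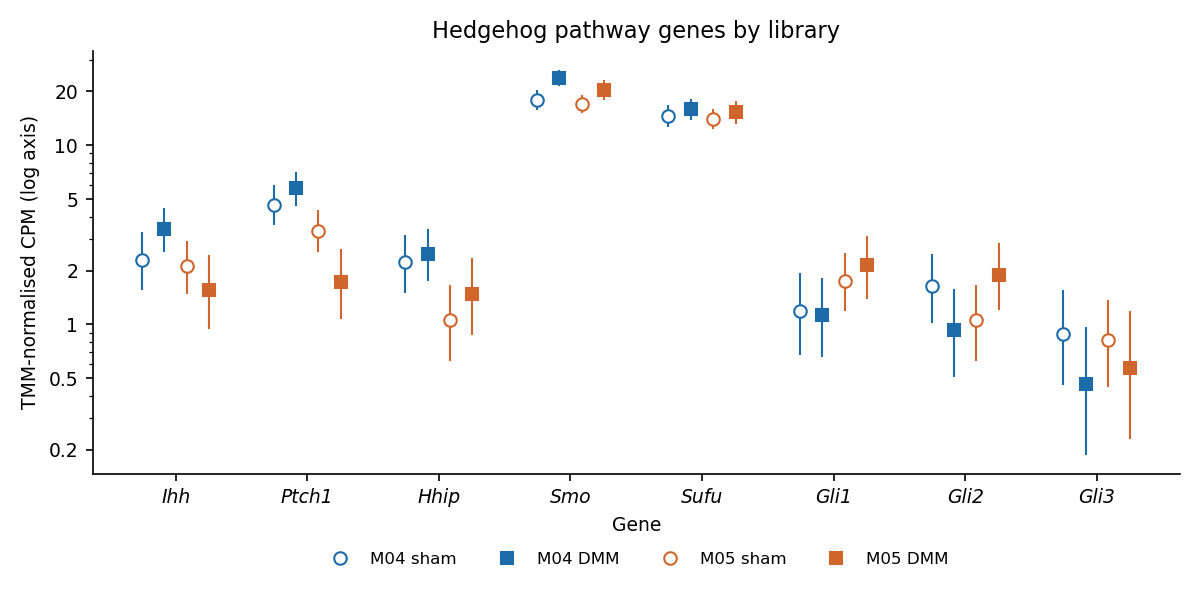
TMM-normalised CPM (log axis) of the 8 genes in each of the 4 libraries, open circles for sham and filled squares for DMM knees, with exact 95% Poisson intervals for counting error. Smo and Sufu lie between 14.0 and 23.7 CPM, and the other genes between 0.468 and 5.75 CPM.

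Surgery was asked about first. Of the 8 genes, 7 passed the filter on low counts and were tested, and Gli3 was not. None of the 7 passed an adjusted p of 0.05 for DMM against sham in edgeR's quasi-likelihood test with the mouse as a block, in which 0.649% of 13103 genes passed. None had an unadjusted p under 0.05 either, against 5.2% of all genes. DESeq2 also called 0 of them, where it called only 11 of 15436 genes. The adjusted p was 1 for each of the 7. Their median log2 fold change was 0.12, beside -0.01 for all genes tested. The intervals differed greatly in width between the relay and the rest. They rest largely on the trend of spread across genes, with 1 residual degree of freedom, and do not measure how far the mice differ.

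Ihh encodes the ligand. It stood at 2.30 CPM in the sham and 3.41 CPM in the DMM knee of M04, and at 2.11 and 1.56 CPM in those of M05. The DMM knees were thus the highest and the lowest of the 4 libraries, and the groups overlapped. The log2 fold change was 0.09 (SE 0.56, 95% interval -1.01 to 1.19), so neither a doubling nor a fall of the same size was outside the interval.

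Ptch1, the receptor and a target of the pathway, had 4.67 and 5.75 CPM in the sham and DMM knee of M04 and 3.34 and 1.72 CPM in those of M05. The DMM knees again held the highest and the lowest value. The log2 fold change was -0.27 (SE 0.44, 95% interval -1.13 to 0.59). Within M05, the log2 ratio of DMM to sham was -0.96, from 57 to 21 counts, with a counting interval of -1.75 to -0.21. This interval compares 2 libraries, not conditions. In M04 the ratio was 0.30 (-0.18 to 0.79), from 63 to 86 counts.

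Hhip, a membrane protein that binds and sequesters the ligand and is also a target, had 2.22 and 2.47 CPM in M04 and 1.06 and 1.48 CPM in M05, sham first. The DMM knee was above the sham knee of the same mouse in each, but the groups overlapped, because both knees of M05 lay below both of M04. The log2 fold change was 0.31 (SE 0.64, 95% interval -0.94 to 1.56).

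Smo, the transducer, had 17.9 and 23.7 CPM in the sham and DMM knee of M04 and 17.0 and 20.3 CPM in those of M05. Both DMM libraries lay above both sham libraries. The log2 fold change of 0.33 (SE 0.21, 95% interval -0.07 to 0.73) had an unadjusted p of 0.11. Counting alone gave a log2 ratio of 0.40 in M04 (0.16 to 0.64) and of 0.25 in M05 (0.0033 to 0.50).

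Sufu, the inhibitor that holds the Gli factors, had 14.6 and 15.8 CPM in M04 and 14.0 and 15.3 CPM in M05, sham first. Its DMM libraries were also above its sham libraries, by a small and nearly equal step of 0.12 in each mouse on the log2 scale. The log2 fold change was 0.12 (SE 0.23, 95% interval -0.33 to 0.57), so a doubling lay outside the interval. Of all genes tested, 13.2% had both DMM libraries above both sham libraries, and among the 7 genes these were Smo and Sufu.

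Gli1, the activator that is itself a target, had 1.19 and 1.14 CPM in the sham and DMM knee of M04 and 1.76 and 2.13 CPM in those of M05. The log2 fold change was 0.12 (SE 0.69, 95% interval -1.23 to 1.47). Gli2, the chief activator among the Gli factors, had 1.63 and 0.936 CPM in M04 and 1.06 and 1.89 CPM in M05. It was thus lower in the DMM knee of M04 and higher in that of M05, with a log2 fold change of 0.04 (SE 0.74, 95% interval -1.41 to 1.48). Gli3, which acts mainly as a repressor, was not tested and had 12 and 7 counts in M04 and 14 and 7 counts in M05, sham first. At 0.468 to 0.889 CPM, both its DMM libraries lay below both its sham libraries, as in 12.3% of all genes tested. However, the counting intervals of its log2 ratio, -2.51 to 0.54 in M04 and -2.06 to 0.89 in M05, each included 0.

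**Figure D2:**
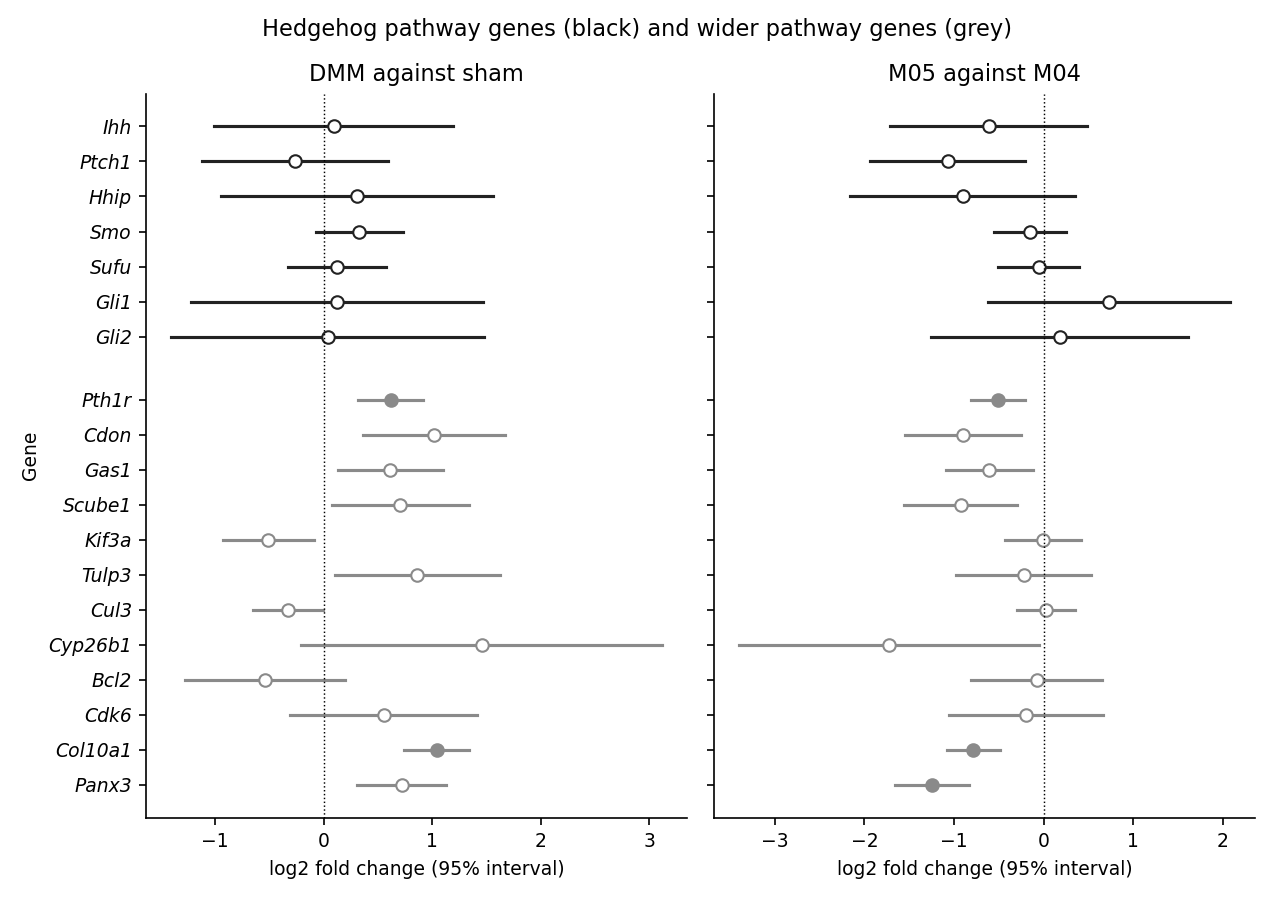
Log2 fold changes with 95% intervals from edgeR's quasi-likelihood fit for DMM against sham (left) and M05 against M04 (right), for the 7 tested Hedgehog genes (black) and genes of the wider pathway lists (grey), filled where the adjusted p was under 0.05. No Hedgehog gene is filled, and the intervals of Smo and Sufu are the narrowest of the 7 in both panels.

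The counts of Gli1 carry a further limit. In the GENCODE annotation of GRCm38, exons of Gli1 overlap those of Arhgap9, a gene on the opposite strand, and it is not stated whether the libraries kept strand. Arhgap9, named after its values were seen, had 68.1 and 60.2 CPM in the sham and DMM library of M04 and 88.1 and 89.2 CPM in those of M05. The libraries of M05 were above those of M04 for both genes. Gli1 counts equalled 1.74%, 1.89%, 2% and 2.35% of Arhgap9 counts in the same order. The DMM library of M05 was the only library in which either gene had a count that was not whole, 25.5 for Gli1 and 1085.5 for Arhgap9. The part of Arhgap9 reads in the Gli1 counts was not tested. Exons of Gli1, Hhip and Gli3 also overlap those of Gm47200, Gm27820 and Gm6556, in that order, each on the opposite strand. These gene models are not among the row names used here, and their part was not tested.

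The FPKM of Gli1 went against its counts. In the deposited FPKM table its log2 ratio of DMM to sham was 0.84 in M04 and -1.09 in M05, whereas the counts gave -0.06 and 0.28. CPM divided by FPKM should be nearly the same for 1 gene in all libraries, and for the median gene its highest value was 1.28 times its lowest. For Gli1 the factor was 3.53, larger than for 99.2% of 12782 genes. The other 7 genes had factors of 1.19 to 1.28. No direction can thus be given for Gli1 in either mouse.

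**Figure D3:**
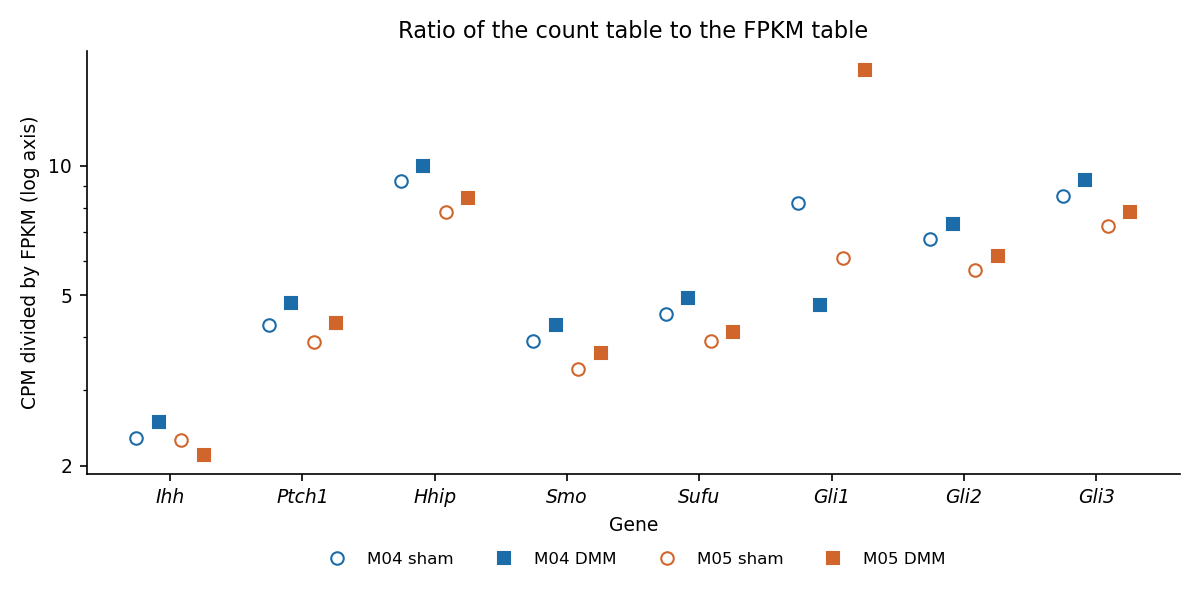
CPM (from the library total, without TMM) divided by the FPKM of the deposited table for the 8 genes (log axis), by library. The 4 values of a gene lie close together except for Gli1, which spans 4.74 to 16.7.

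The responses of the mice were set side by side. Ihh and Ptch1 had log2 ratios above 0 in M04 (0.54 and 0.29, from log2 CPM with a prior count of 2) and below 0 in M05 (-0.41 and -0.90). Gli2 showed the reverse, with -0.72 in M04 and 0.76 in M05. Gli1 also had opposite signs (-0.05 and 0.26), so 4 of the 7 tested genes did, where 52.9% of all genes tested did. Hhip (0.15 and 0.44), Smo (0.40 and 0.25) and Sufu (0.12 in each) were above 0 in both mice, as were 23.2% of all genes. A test of the difference between the responses, in which mouse and surgery count as spread, called 0 of the 7 genes by edgeR, with unadjusted p-values from 0.206 for Gli2 to 0.998 for Sufu, and passed 0.0153% of all genes. Unadjusted, 2.34% of all genes were under 0.05. Skeletal muscle markers also had opposite ratios in the mice. Their sum was 126.1 CPM in the sham and 335.1 CPM in the DMM knee of M04, and 445.2 and 125.4 CPM in M05. All 8 had opposite signs, with a median log2 ratio of 1.58 in M04 and -1.95 in M05. The 2 genes that passed the test of the difference were both of this list, Acta1 and Mb (edgeR, adjusted p = 0.0342 for each), and were named after their values were seen. The part of muscle RNA in the ratios of Ihh and Ptch1 was not tested.

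**Figure D4:**
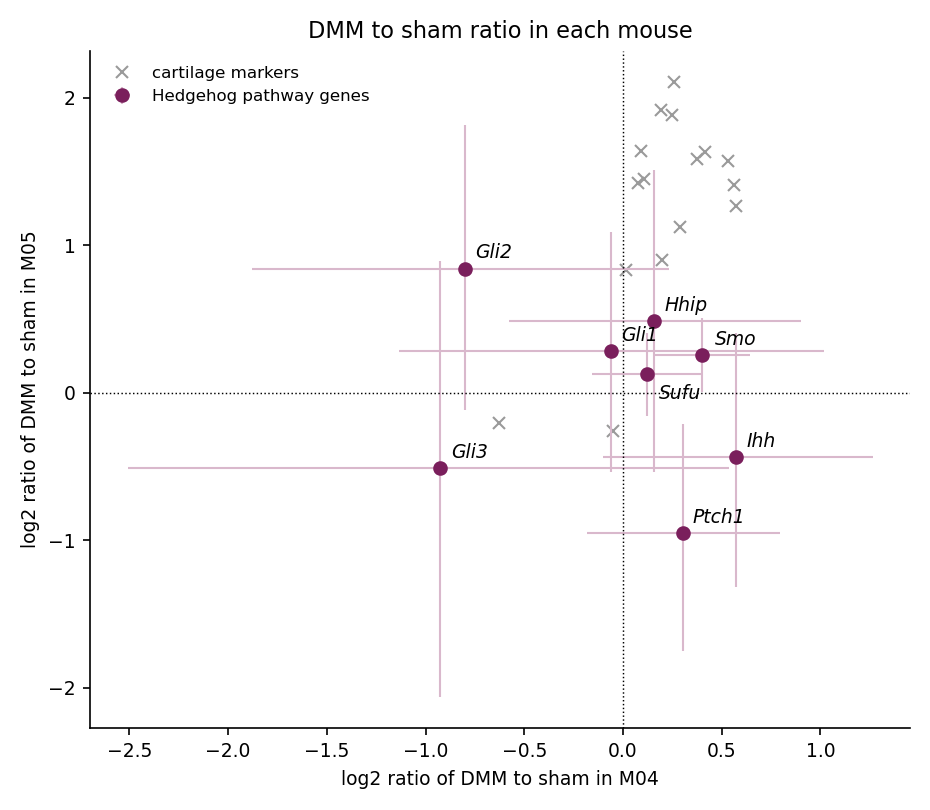
Log2 ratio of DMM to sham in M04 (x axis) and in M05 (y axis), circles for the 8 Hedgehog genes with 95% counting intervals and crosses for 16 cartilage markers. Ratios of the Hedgehog genes are without a prior count, and those of the markers with a prior count of 2. The cartilage markers have a median of 0.22 in M04 and 1.43 in M05, and Ihh, Ptch1 and Gli3 lie below 0 on the y axis.

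Ihh, Ptch1, Gli2 and Gli1 had ratios of opposite signs in the mice by counts and by FPKM, but no upstream sequence was matched for Gli1. The upstream sequences of Ihh, Ptch1 and Gli2 are shown because Gli factors act by binding DNA. They cover the 250 bases before the RefSeq start on GRCm38.p6, a build older than the GRCm39 of the counts, and capitals mark the letters CCACCC, or GGGTGG on the other strand, the core of the Gli site.
Ihh, chr1:74951673-74951922, minus strand: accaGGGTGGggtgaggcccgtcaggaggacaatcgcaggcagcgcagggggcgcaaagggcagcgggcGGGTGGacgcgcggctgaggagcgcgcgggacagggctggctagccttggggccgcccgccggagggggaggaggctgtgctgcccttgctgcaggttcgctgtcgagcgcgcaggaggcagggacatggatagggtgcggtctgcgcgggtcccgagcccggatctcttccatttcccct
Ptch1, chr13:63565736-63565985, minus strand: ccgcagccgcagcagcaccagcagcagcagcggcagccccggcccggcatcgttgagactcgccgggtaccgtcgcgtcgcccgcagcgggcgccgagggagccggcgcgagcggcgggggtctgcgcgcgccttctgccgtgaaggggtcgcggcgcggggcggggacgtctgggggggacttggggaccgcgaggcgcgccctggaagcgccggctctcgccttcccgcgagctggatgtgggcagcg
Gli2, chr1:119053620-119053869, minus strand: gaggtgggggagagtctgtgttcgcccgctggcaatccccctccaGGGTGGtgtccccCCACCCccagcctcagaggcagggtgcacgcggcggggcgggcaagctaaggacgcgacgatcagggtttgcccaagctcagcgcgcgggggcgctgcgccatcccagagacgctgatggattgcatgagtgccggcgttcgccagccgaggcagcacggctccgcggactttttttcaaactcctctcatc

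The full Gli site GACCACCCA, searched on both strands with any overlap with the core, was in 0 of the 7 windows found for the 8 genes and in 0.225% of 32851 windows of all genes. Its core CCACCC was in 5 of the 7, those of Ihh, Smo, Gli2, Gli3 and Hhip, and in 28.1% of all windows. It occurred at 2 places each in Ihh and Gli2, and the windows of Ptch1 and Sufu lacked these letters. These windows are short and rich in G and C (72.0% for Ihh and 78.4% for Ptch1), and a match is a description of the letters only.

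The second comparison was of the mice. None of the 7 genes differed between M05 and M04 past an adjusted p of 0.05 in edgeR, where 2.6% of all genes did. At an unadjusted p under 0.05, 1 of them did, Ptch1, against 14.3% of all genes. Ptch1 had a log2 fold change of -1.07 in M05 (SE 0.44, 95% interval -1.93 to -0.20, unadjusted p = 0.0155, adjusted p = 0.196). Without the DMM library of M05, its sham library at 3.34 CPM was still below both libraries of M04. Both libraries of M05 lay below both of M04 for Ptch1, Ihh (-0.61, SE 0.56) and Hhip (-0.90, SE 0.64), as in 22.8% of all genes. For Gli1 both lay above by counts (0.74, SE 0.69), as in 22.5%, but its FPKM overlapped, at 0.151 and 0.271 in M04 and 0.255 and 0.120 in M05, sham first. Smo (-0.15, SE 0.21) and Sufu (-0.06, SE 0.23) had the smallest differences. Cartilage markers had a median of -0.98 in the same comparison, and 10 of 16 were lower past the threshold. Their part in the lower values of Ptch1, Ihh and Hhip was not tested.

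The counts were also set against the cartilage transcripts of the same library. This scaling shifts the log2 ratio of DMM to sham by the same amount for every gene, by -0.20 in M04 and by -1.62 in M05. The shift follows from the cartilage counts and is not particular to the 8 genes. Ihh had 0.364 and 0.472 counts per 1000 cartilage marker counts in the sham and DMM knee of M04, but 1.19 and 0.284 in those of M05. Ptch1 had 0.74 and 0.796 in M04, and 1.88 and 0.314 in M05. Smo had 2.84 and 3.28 in M04, and 9.55 and 3.69 in M05. On this scale the log2 ratio of DMM to sham in M05 lay between -2.58 for Ptch1 and -0.79 for Gli2. In M04 it lay between -1.12 for Gli3 and 0.37 for Ihh. Whether the transcripts of the 8 genes came from chondrocytes or from the other cells in these samples was not tested. Markers of osteoblasts and osteocytes summed to 1514 to 1836 CPM in sham and 1890 to 2032 CPM in DMM knees, and markers of marrow stroma to 726.7 to 756.7 and 653.4 to 753 CPM. Those of fibroblasts summed to 70.4 to 70.8 and 82.3 to 89.7 CPM, and of endothelium to 106.7 to 137.9 and 115 to 134 CPM. Of 6 fibroblast markers tested, 2 were higher in DMM knees past the threshold and none was lower, against 0.633% and 0.0153% of all genes. These 2 were Dpt, with a log2 fold change of 2.09, and Clec3b, with 2.19. The ratio of DMM to sham was above 0 in both mice for 4 of the 6. It was below 0 in both for the other 2, Pi16 (log2 fold change -0.13) and Pdgfra (-0.06).

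**Figure D5:**
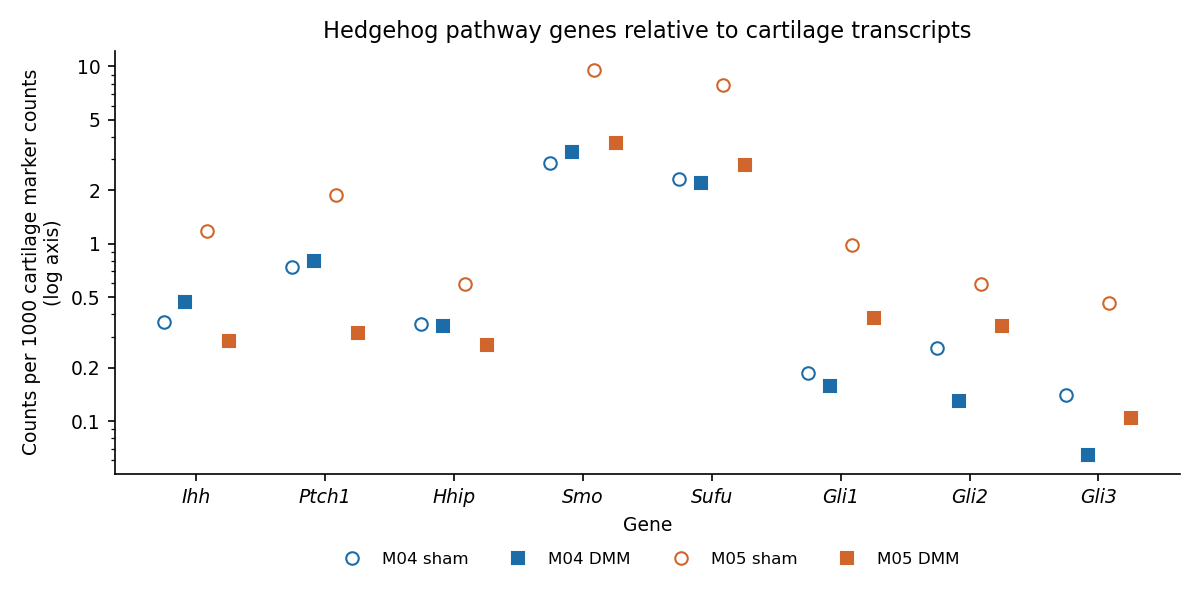
Counts of the 8 genes per 1000 counts of 16 cartilage markers in the same library (log axis), open circles for sham and filled squares for DMM knees. The sham library of M05, which had the fewest cartilage marker counts, has 1.19 for Ihh and 9.55 for Smo, and the scaling raises all genes of that library alike.

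Beyond the 8 genes, 62 genes of the pathway's surroundings were found in the table, and 45 of them were tested. For surgery 2 passed, both higher in DMM knees, and none was lower, where 0.633% of all genes were higher and 0.0153% lower. Their median log2 fold change was 0.15. Both belong to the partners of Ihh in the growth plate, of which 6 were tested. Pth1r, the receptor of PTHrP, had 97.5 CPM in the sham and 138.8 CPM in the DMM knee of M04, and 63.6 and 105.1 CPM in M05. It rose by 0.62 (edgeR, SE 0.15, adjusted p = 0.0172). The hypertrophic collagen gene Col10a1 had 157.5 and 341.3 CPM in M04 and 96.4 and 188.6 CPM in M05, a rise of 1.04 (adjusted p = 2.51e-08). Neither gene passed with no replicate block or with limma on FPKM. With 1 library left out and no mouse term, both passed only in the fit without the sham knee of M04. Pth1r stood at 0.39 without the DMM knee of M04, 0.32 without the sham knee of M05 and 0.78 without the DMM knee of M05, and Col10a1 at 0.57, 0.75 and 1.42. Pth1r was lost as well with RLE scaling (edgeR, adjusted p = 0.0861), without haemoglobin genes (0.133) and with DESeq2 (0.607). Beside these genes, 7 of the 16 cartilage markers were higher in DMM knees past the threshold, with a median log2 fold change of 0.88 over the 16. The ratio of DMM to sham was above 0 in both mice for 14 of them. It was below 0 in both for the other 2, Sox6 (log2 fold change -0.42) and Sox5 (-0.16). Of 10 markers of osteoblasts and osteocytes 2 were higher, the mineralisation genes Alpl (0.72) and Ibsp (0.56). By ratio, 7 of the 10 were above 0 in both mice. The other 3, Phex (-0.49), Sost (-0.52) and Mepe (0.21), were above 0 in M04 and below 0 in M05. The part of either list in the values of Pth1r and Col10a1 was not tested. Panx3, a channel protein of hypertrophic chondrocytes, stood at 0.72 on the log2 scale (SE 0.21, adjusted p = 0.0849). Pthlh, the gene of PTHrP itself, had 1 and 3 counts in M04 and 0 and 5 in M05, too few to test.

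Of 15 genes of ligand release and reception, 7 were tested, and none passed. The smallest p-values were those of the co-receptors Cdon and Gas1 and of Scube1. Cdon had 6.74 CPM in the sham and 10.8 CPM in the DMM knee of M04, and 2.76 and 7.31 CPM in M05, a difference of 1.02 on the log2 scale (SE 0.33, adjusted p = 0.223). In fits with 1 library left out and no mouse term, the difference ranged from 0.424 to 1.71, the latter without the sham library of M04. For Gas1 the difference was 0.62 (SE 0.25, adjusted p = 0.578), and for Scube1, a secreted protein of the family that helps release the ligand, 0.71 (SE 0.32, adjusted p = 0.786). All 3 had their lowest value in the sham library of M05, which also had the lowest cartilage share. The other ligands had few or no counts. Shh had 0 in all 4 libraries, where a count of 0 allows up to 3 counts, or 0.176 to 0.246 CPM by library. Dhh had 1 and 2 in M04 and 0 and 1 in M05.

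Of 24 genes of signal relay and Gli processing in the table, 22 were tested, with a median log2 fold change of 0.01, and none passed for surgery or mouse. Kif3a, a motor of the transport within primary cilia, had 20.7 and 14.4 CPM in M04 and 20.5 and 14.5 CPM in M05, sham first (-0.51, SE 0.21, adjusted p = 0.64). Its DMM libraries lay below its sham libraries, as in 12.3% of all genes. Tulp3, which carries receptors into the cilium, had 0.86 (SE 0.39, adjusted p = 0.778), and Cul3, a ubiquitin ligase scaffold, -0.33 (SE 0.17, adjusted p = 0.943). Of 17 genes known as Gli targets, 10 were tested and none passed, with a median of 0.11. The smallest p-values were those of Cyp26b1, a retinoic acid-degrading enzyme (1.45, SE 0.85, adjusted p = 1), the survival gene Bcl2 (-0.54, SE 0.38, adjusted p = 1) and the cell-cycle kinase Cdk6 (0.55, SE 0.44, adjusted p = 1).

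Between the mice, 3 of the 45 genes were lower in M05 and none was higher, where 1.64% and 0.962% of all genes were. They were Panx3 (-1.25, SE 0.21, adjusted p = 2.47e-06), Col10a1 (-0.78, SE 0.15, adjusted p = 0.000107) and Pth1r (-0.51, SE 0.15, adjusted p = 0.0426). By edgeR, Pth1r no longer passed with RLE scaling (adjusted p = 0.0937), without haemoglobin genes (0.121), without a filter on low counts (0.0695) or without robust moderation (0.0583), nor by DESeq2 (0.0965). All 3 were in the growth-plate list, none in the lists of receptors, relay and targets. The lower cartilage markers of M05 moved with them, and their part was not tested.

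Lastly, the genes with patterns nearest to those of Ihh, Ptch1 and Gli1 were named, by the distance of mean-centred log2 CPM over the 4 libraries among 7291 genes with at least 10 CPM on average. For Ihh they were Slc39a6 (0.07), Igfbp3 (0.11) and Nrp2 (0.13). For Ptch1 they were Hba-x (0.14), Tsc22d3 (0.30) and Hnrnpl (0.33), and for Gli1 Pigyl (0.07), Dgat1 (0.09) and Ica1 (0.11). Only 4 libraries enter each distance, so many genes can lie near any pattern.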

How the data were processed

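RNA of 4 libraries was poly(A)-selected and sequenced on a HiSeq 2500, per the labels' protocols. Reads were placed on GRCm39 (mm39), per the submitters' processing notes, but for the aligner, the counter and the strand setting the sources used here name nothing. The deposited table holds estimated counts, of which 9.21% to 10.9% per library were not whole. Each library is listed in 2 columns that were equal in all 24421 rows, and it was counted once. The FPKM values are the authors' own deposited scaling for length and depth.

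After rounding, edgeR 4.0.16 (R 4.3.3) served for all count tests (filterByExpr with a minimum count of 10, TMM, robust quasi-likelihood fit with mouse and surgery). P-values were adjusted by Benjamini-Hochberg over 13103 genes, with a threshold of 0.05. A standard error is the log2 fold change over the root of F. Blocking by mouse rests on the labels, by which both knees belonged to 1 animal, and same-mouse deviations had a correlation of 0.13 over genes. There was 1 residual degree of freedom. For 83% of genes the spread came from the trend across genes, so p-values and intervals do not measure how far the mice differ. Intervals of single libraries (Poisson) and of ratios within a mouse (exact binomial) are at 95% and cover counting error only. Wider pathway genes were named where they passed for surgery or mouse, or had 1 of the 3 smallest surgery p-values of their list, and Pthlh and Pth1r always. The 63 listed names include Grk2 under its older symbol Adrbk1 as well. DESeq2 1.42.0, limma 3.58.1 on FPKM and other settings were alternatives. The fit was tested on simulated data. Genes and lists were chosen with earlier results of these data known. Promoter windows are from RefSeq on GRCm38.p6, and 7 of the 8 genes were matched, without Gli1.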

Additional observations from a re-analysis of the deposited data

Results flagged for a closer look

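The log2 ratio of DMM to sham had opposite signs in the 2 mice for 4 of the 7 tested Hedgehog genes, with 1 pair of knees per mouse, as it had for 52.9% of all genes tested. The ratio in M05 minus that in M04 was -0.95 for Ihh, -1.2 for Ptch1, 0.31 for Gli1 and 1.48 for Gli2. For Gli1 the deposited FPKM gave ratios in the reverse order, 0.84 in M04 and -1.09 in M05, so no direction can be given for it. A test of this difference that counts mouse and surgery as spread gave unadjusted p-values of 0.336, 0.36, 0.767 and 0.206 in edgeR and an adjusted p of 1 for each.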

How the results depend on the processing

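No Hedgehog gene passed for surgery, for the mouse or for the difference between responses under any alternative that gave it an adjusted p, and DESeq2 gave none for the mouse. Over all settings, 75 refitted surgery fold changes of the 7 genes kept their direction and 11 turned. In fits that leave out 1 library and have no mouse term, the range was -0.49 to 0.63 for Ihh, -1.2 to 0.52 for Ptch1, -0.16 to 0.91 for Hhip, -0.38 to 0.53 for Gli1 and -0.51 to 0.50 for Gli2, while Smo (0.22 to 0.44) and Sufu (0.09 to 0.15) stayed above 0. With limma, Gli1 turned to -0.064 on log2(FPKM + 0.1) and to -0.011 on log2(FPKM + 1). These fits use the FPKM values, in which the log2 ratio of Gli1 was 0.84 in M04 and -1.09 in M05. The cause of the disagreement between its FPKM and its counts was not tested. Between the mice, Kif3a turned from -0.0047 to 6.43e-05 without a filter, both near 0. Of the wider lists, 2 genes passed for surgery, against 1 with RLE scaling, 1 without haemoglobin genes, 1 with DESeq2, 0 in both limma fits, 0 with no replicate block and 0 to 4 when 1 library was left out. Pth1r was the call lost with RLE scaling, without haemoglobin genes and with DESeq2, and Col10a1 stood at 1.06 with no replicate block. Over all genes the count of 85 became 35 with RLE scaling, 23 without haemoglobin genes, 11 with DESeq2, 0 with no replicate block (322 at an unadjusted p under 0.05) and 0 with limma (474 and 530). Scaling to cartilage marker counts shifts the log2 ratio of every gene alike, by -1.62 in M05, and the ratios there moved to -2.06 for Ihh, -2.58 for Ptch1, -1.37 for Smo, -1.37 for Gli1, -0.79 for Gli2, -2.14 for Gli3, -1.14 for Hhip and -1.50 for Sufu. Depth limits the ligand, targets and Gli factors, which had 7 to 86 counts per library.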
